A study of Mus musculus with 18 samples.

Results

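The mRNA fragments held inside ribosomes were compared between the brains of Ftsj1 knockout (KO) mice and wild-type (WT) mice. The members are the 6 libraries that the labels name as ribosome-contained mRNA on a HiSeq, 3 from KO mice and 3 from WT mice, of 18 samples in the whole series. Both genotypes were male C57BL/6 mice aged 8 weeks that received no treatment, and the labels number the mice, so each library is a separate animal. Whole dissected brains were frozen, lysed and taken through ribosome profiling, so neurons, glia, vessels and choroid plexus all contributed, and how the knockout allele was made is not given in the sources used here. Each mouse also gave a total mRNA library, which is used below only to set the ribosome-contained values beside the RNA level.

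Ftsj1 is an X-linked gene for a methyltransferase that modifies the ribose of nucleotides in the anticodon loop of several tRNAs, tRNA-Phe among them, and mutations of its human counterpart cause intellectual disability. Ribosome profiling digests the RNA that ribosomes do not cover and sequences the protected fragments, so the count of a gene reflects both how much of its mRNA is present and how densely ribosomes sit on it. A ribosome that waits longer at a codon also adds fragments there. The knockout is therefore read here gene by gene: which mRNAs carried more or fewer ribosome-protected reads, which functions they serve, and whether mRNAs rich in phenylalanine codons stood apart.

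To show what a phenylalanine-rich and a phenylalanine-poor message look like to the ribosome, the 30 consecutive codons holding the most TTT and TTC codons are printed for 3 mRNAs rich in them and for 3 of the mRNAs called below. The sequences are read 5′ to 3′ in frame from GENCODE M21 coding sequences on GRCm38, and capitals mark the phenylalanine codons.
Golt1b: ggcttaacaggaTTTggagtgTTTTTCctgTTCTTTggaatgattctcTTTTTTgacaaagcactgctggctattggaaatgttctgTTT
Tmem203: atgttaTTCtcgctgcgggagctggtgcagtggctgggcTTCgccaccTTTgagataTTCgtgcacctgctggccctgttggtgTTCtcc
Alg10b: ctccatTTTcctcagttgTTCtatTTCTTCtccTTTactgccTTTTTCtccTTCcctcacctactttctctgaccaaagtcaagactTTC
Slc5a3: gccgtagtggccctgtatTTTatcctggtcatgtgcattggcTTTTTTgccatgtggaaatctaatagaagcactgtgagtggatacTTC
Eef1a2: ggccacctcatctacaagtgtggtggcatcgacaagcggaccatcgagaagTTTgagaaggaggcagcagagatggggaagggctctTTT
Ier5: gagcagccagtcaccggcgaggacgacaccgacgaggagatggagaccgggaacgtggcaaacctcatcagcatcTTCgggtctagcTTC
These windows hold 8 phenylalanine codons in Golt1b, 9 in Alg10b, 5 in Tmem203, 4 in Slc5a3, and 2 each in Eef1a2 and Ier5. Over the whole coding sequence such codons made up 24 of 138 in Golt1b (17.4%), a Golgi transport protein, 15 of 136 in Tmem203 (11.0%) and 50 of 474 in Alg10b (10.5%), a glucosyltransferase of protein glycosylation. They made up 37 of 718 in Slc5a3 (5.15%), 13 of 463 in Eef1a2 (2.81%) and 4 of 308 in Ier5 (1.30%). The printed windows are codons 13 to 42 of Golt1b, 1 to 30 of Tmem203, 287 to 316 of Alg10b, 11 to 40 of Slc5a3, 25 to 54 of Eef1a2 and 229 to 258 of Ier5. The genes lie on chromosome 6 at 142387211 to 142413835 (Golt1b), chromosome 2 at 25255439 to 25256352 (Tmem203), chromosome 15 at 90224311 to 90230554 (Alg10b), chromosome 16 at 92058322 to 92087473 (Slc5a3), chromosome 2 at 181141758 to 181157015 (Eef1a2, minus strand) and chromosome 1 at 155096367 to 155099636 (Ier5, minus strand).

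The KO libraries held 1055741, 1142062 and 1059111 counts and the WT libraries 1212043, 1165451 and 1560192, so each KO library was shallower than each WT library. Log2 levels correlated between libraries at 0.978 to 0.985 across rows, within and between genotypes alike. Ftsj1 itself had a count of 0 on both of its accessions in every library, WT included, so the knockout could not be checked from its own reads. The share of protein-coding genes that reached the test was 35.7% with 1 accession, 15.5% with 2 and 4.53% with at least 3. A gene with several transcript models is thus often missing below, which does not show it to be silent.

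In KO brain, ribosome-contained mRNA of the immediate early genes Egr1, Ier5 and Fosl2 and of the clock genes Bhlhe40 and Nr1d1 fell, and that of the choroid plexus product Ttr and of the neuronal elongation factor Eef1a2 rose. Of 4749 rows tested, 10 were called at an adjusted p under 0.05 (0.211%; edgeR quasi-likelihood test, Benjamini-Hochberg adjustment over all rows), 2 higher (0.0421%) and 8 lower (0.168%) in KO mice. The count depended on single libraries: it was 24 with KO replicate 2 or WT replicate 3 left out, 4 with WT replicate 1 left out and 5 with WT replicate 2 left out. The spread of all rows was narrow: the median log2 fold change, KO over WT, was 0.00, the quartiles were -0.12 and 0.12, and 67.6% of rows lay within 0.2 of no change. An unadjusted p under 0.05 was found for 450 rows (9.48%), 212 higher (4.46%) and 238 lower (5.01%). KO and WT values did not overlap in 696 rows (14.7%), 337 with KO above WT (7.1%) and 359 with KO below WT (7.56%). The plot of fold change against level shows the called rows at middle and high levels, outside a cloud that widens to the left.

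**Figure D1:**
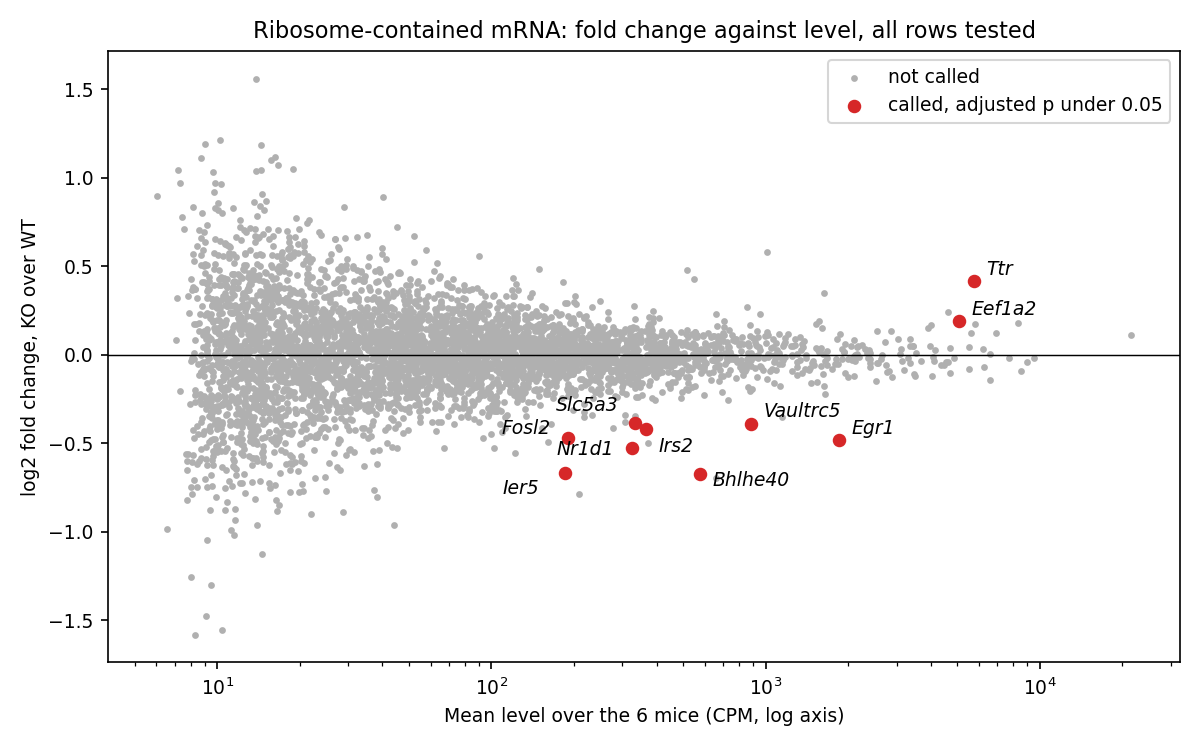
Each point is 1 of the 4749 rows tested, with its mean level over the 6 mice in CPM (log axis) across and its log2 fold change, KO over WT, upward. Red points are the 10 called rows; 2 lie above 0 and 8 below, and their fold changes run from -0.67 (Bhlhe40) to 0.41 (Ttr).

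Among the called genes, the transcriptional repressor Bhlhe40, which is part of the circadian clock and is also induced by neuronal activity and hypoxia, had 415, 460 and 457 CPM in the KO mice, against 737, 780 and 614 CPM in the WT mice (log2 fold change -0.67, SE 0.0760, adjusted p = 2.57e-05, edgeR). Levels in CPM are counts scaled to a common library size after normalization. The highest KO mouse lay well under the lowest WT mouse. In bulk tissue such a value cannot separate fewer cells of a type from less RNA, or fewer ribosomes, per cell. Nr1d1, a nuclear receptor that represses clock genes, had 218, 259 and 320 CPM in the KO mice and 389, 389 and 374 CPM in the WT mice (-0.53, SE 0.0951, adjusted p = 0.0122, edgeR). The 3 WT mice were nearly level for Nr1d1, while the KO mice were spread below them. Of 7 clock genes tested, 4 had negative and 3 positive fold changes. Bhlhe40 and Nr1d1 fell, where 0.168% of all rows did, and 5 did not pass. Of those, Nr1d2, a close relative of Nr1d1, was at -0.17, the transcription factor gene Dbp at -0.14 and the receptor gene Rora at 0.25. Dbp is seen through 1 of 3 transcript models. Rora is seen through 1 of 7, at a mean of 14.7 CPM in KO mice and 12.4 CPM in WT mice. The list had a median log2 fold change of -0.14, against 0.00 over all rows. Bhlhe40 overlaps a long noncoding RNA gene and Nr1d1 overlaps Thra, and whether reads were counted by strand is not given in the sources used here. The adjusted p of Nr1d1 (edgeR) was 0.0509 without KO replicate 2, 0.206 without WT replicate 1 and 0.0916 without WT replicate 2, and the call was lost each time.

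Immediate early genes, which neurons switch on within minutes of activity, had more called rows than the other lists examined. All 14 tested members of 30 lay below 0. Of them 3 fell, against 0.168% of all rows. An unadjusted p under 0.05 in that direction was found for 9, against 5.01% of all rows. KO and WT did not overlap in 6, where 7.56% of all rows had KO below WT without overlap. The median was -0.37, against 0.00 over all rows. This list, like the others, was chosen with earlier results of these data known, so these counts describe it and are no independent support. Egr1, a zinc finger transcription factor, had 1441, 1503 and 1681 CPM in the KO mice and 2346, 2096 and 2018 CPM in the WT mice (-0.48, SE 0.0597, adjusted p = 0.000102, edgeR). Ier5, a regulator of the heat shock response, had 135, 166 and 129 CPM in the KO mice, against 263, 201 and 221 CPM in the WT mice (-0.67, SE 0.109, adjusted p = 0.00156, edgeR). Fosl2, a partner of Jun proteins in AP-1, had 135, 168 and 174 CPM in the KO mice and 239, 234 and 193 CPM in the WT mice (-0.47, SE 0.104, adjusted p = 0.0452, edgeR). For each of these 3 genes every KO mouse was below every WT mouse. Ier5 lost its call without WT replicate 1 (adjusted p = 0.0643, edgeR). For Fosl2 the adjusted p was 0.286 without KO replicate 1, 0.0592 without KO replicate 3, 0.391 without WT replicate 1, 0.183 without WT replicate 2, 0.265 with DESeq2 and 0.0508 with the size factors of DESeq2 in edgeR.

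The other members of the list did not pass over all rows. Egr4, a relative of Egr1, had 117, 139 and 138 CPM in the KO mice and 213, 151 and 163 CPM in the WT mice (-0.41, adjusted p = 0.187, edgeR). Junb, an AP-1 subunit, had 167, 196 and 217 CPM in the KO mice and 227, 231 and 265 CPM in the WT mice (-0.32, adjusted p = 0.194, edgeR). Both genes were without overlap between genotypes. Fos, the best known of these genes, had 202, 219 and 297 CPM in the KO mice and 310, 295 and 347 CPM in the WT mice (-0.42, adjusted p = 0.235, edgeR), and KO replicate 3 reached above the lowest WT mouse. Without KO replicate 3 Fos passed (-0.59, adjusted p = 0.00143, edgeR). That omission takes out the mouse that overlapped, which separates the genotypes by construction, so the pass adds no support. The kinase gene Sik1 was at -0.54. Outside the list, among the 10 rows next to the threshold, the phosphatase gene Dusp4, which restrains MAP kinases, was at -0.56, with 103, 95.4 and 96.0 CPM in the KO mice and 165, 160 and 113 CPM in the WT mice (adjusted p = 0.0730, edgeR). Dusp4 passed without WT replicate 3 (-0.73, adjusted p = 0.00201, edgeR).

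Markers of cell types were set beside these genes. The 4 tested of 8 neuron markers had a median of -0.02, and the summed level of the list was 11740 to 12240 CPM in KO mice and 11980 to 12670 CPM in WT mice. Markers of cortex and hippocampus summed to 224 to 238 CPM in KO mice and 269 to 281 CPM in WT mice, with 3 of 9 tested and Mef2c at 0 in every library. Within it, the transcription factor gene Neurod2 of excitatory neurons had 85.9, 101 and 84.5 CPM in the KO mice and 118, 119 and 104 CPM in the WT mice (-0.32, adjusted p = 0.374, edgeR). Microglia markers summed to 562 to 627 CPM in KO mice and 641 to 678 CPM in WT mice, with 3 of 12 tested and Aif1, Csf1r, Ctss, Itgam and P2ry12 at 0. Oligodendrocyte markers summed to 3916 to 4055 CPM in KO mice and 4056 to 4483 CPM in WT mice, with Mag and Myrf at 0; the claudin gene Cldn11 was at -0.15 and the transcription factor gene Sox10 at -0.27. The cortex and hippocampus sums and the microglia sums were lower in every KO mouse than in every WT mouse. The oligodendrocyte sums of KO replicate 3 (4055 CPM) and WT replicate 3 (4056 CPM) were nearly equal, so that list was not taken as separated. None of these 3 lists held a called row, and their part in the fall of Egr1, Ier5 and Fosl2 was not tested. Astrocyte markers summed to 14870 to 14910 CPM in KO mice and 14760 to 15020 CPM in WT mice.

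**Figure D2:**
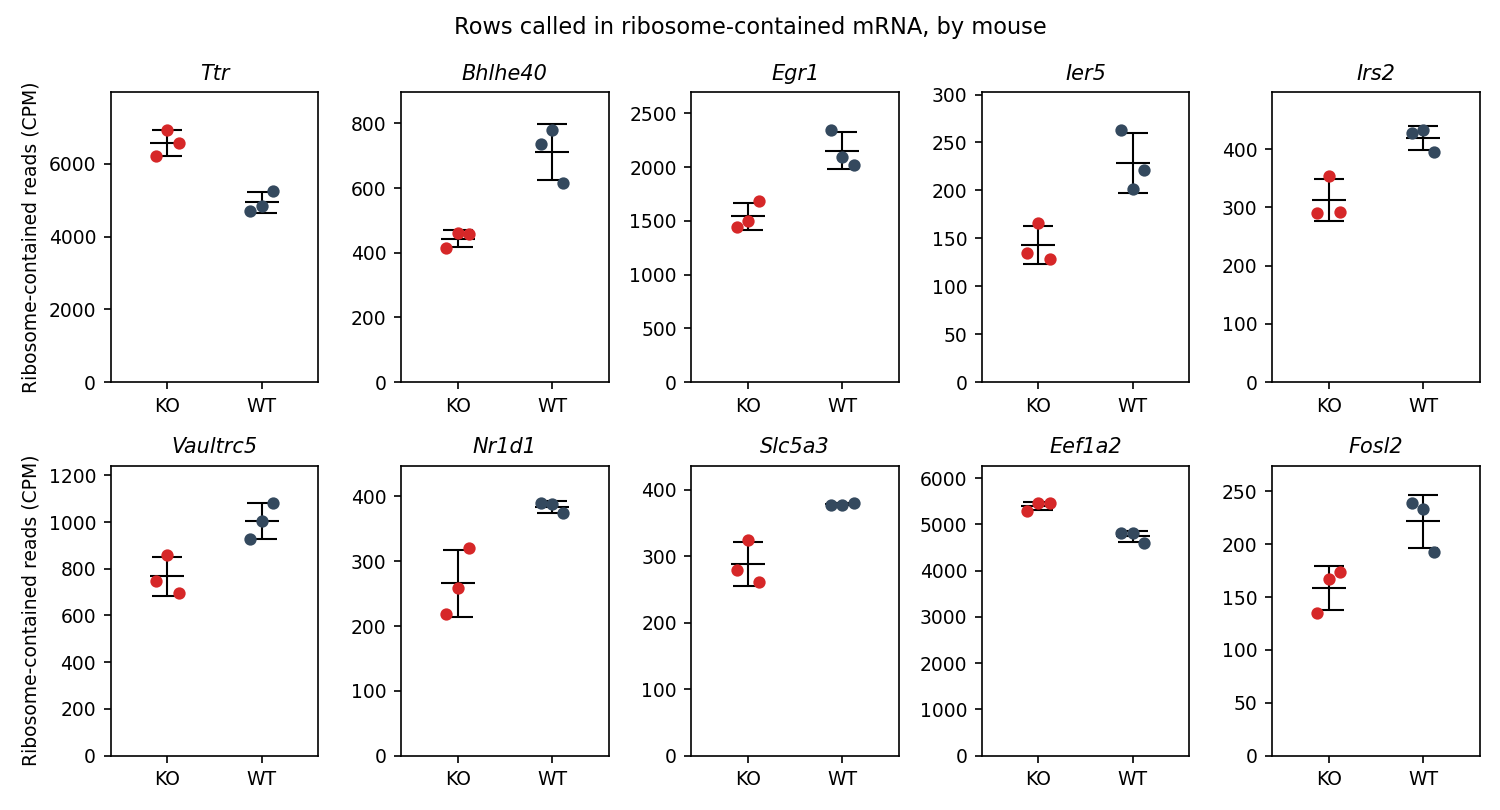
Each panel shows 1 of the 10 called rows, with its level in CPM upward from 0, the KO mice on the left and the WT mice on the right; points are mice and bars the mean ± SD (n = 3 each). In no panel do the genotypes overlap: Ttr and Eef1a2 were higher in KO mice and the other 8 lower.

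Ttr encodes transthyretin, the carrier of thyroid hormone and retinol that the choroid plexus secretes into the cerebrospinal fluid. It had 6220, 6931 and 6584 CPM in the KO mice, against 4706, 4850 and 5254 CPM in the WT mice (log2 fold change 0.41, SE 0.0464, adjusted p = 3.7e-06, edgeR). All 7 tested choroid plexus markers of 14 had positive fold changes, with a median of 0.41. Of them 1 rose, against 0.0421% of all rows, and 6 had an unadjusted p under 0.05 in that direction, against 4.46% of all rows. These markers too were chosen with earlier results of these data known, so the counts are no independent support. The water channel gene Aqp1 had 47.3, 25.0 and 48.0 CPM in the KO mice and 26.9, 16.6 and 30.5 CPM in the WT mice (0.66, adjusted p = 0.374, edgeR). Sostdc1, a secreted inhibitor of BMP and Wnt signalling, had 50.2, 50.8 and 43.2 CPM in the KO mice and 28.6, 40.1 and 27.2 CPM in the WT mice (0.60, adjusted p = 0.274, edgeR). Only Sostdc1 of these last 2 was without overlap. Kl, the gene of the anti-ageing hormone klotho, was at 0.33, the chloride channel protein gene Clic6 at 0.27, Steap1 at 0.83 and the potassium channel gene Kcnj13 at 0.28, and none of them passed. The Kl row is 1 of 2 transcript models of the gene. The marker list as a whole summed to 6493 to 7270 CPM in KO mice and 4930 to 5499 CPM in WT mice. Such sums are scaled to all counts of a library and the Ttr level to normalized counts, so a sum without Ttr is not given. Cldn2, Folr1, Otx2 and Slc4a5, further defining genes of this epithelium, were at 0 in every library, and the part of choroid plexus content in the Ttr value was not tested. Of 8 ependyma markers 0 reached the test, and haemoglobin and other blood markers summed to 103 to 158 CPM in KO mice and 87.2 to 142 CPM in WT mice, which overlapped. Ttr overlaps a long noncoding RNA gene.

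Genes that carry hormonal, nutrient and osmotic signals supplied 2 more calls. Irs2, the docking protein of the insulin and IGF receptors, had 290, 354 and 292 CPM in the KO mice and 428, 433 and 396 CPM in the WT mice (-0.42, SE 0.0765, adjusted p = 0.00616, edgeR). Slc5a3, the cotransporter that brings the osmolyte myo-inositol into cells, had 279, 324 and 261 CPM in the KO mice and 378, 376 and 379 CPM in the WT mice (-0.39, SE 0.0767, adjusted p = 0.0122, edgeR). The WT mice were nearly level for Slc5a3, and the KO mice were spread below them. Irs2 overlaps a long noncoding RNA gene and Slc5a3 overlaps Mrps6. Neither call held throughout. With single libraries left out, the adjusted p of Irs2 (edgeR) missed the threshold 4 times: 0.0888 without KO replicate 1, 0.0823 without KO replicate 3, 0.0921 without WT replicate 1 and 0.0547 without WT replicate 2. For Slc5a3 it was 0.109 without KO replicate 1, 0.143 without KO replicate 3, 0.111 without WT replicate 1, 0.0613 without WT replicate 2, and 0.112 with DESeq2.

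Of the lists around these genes, only osmolyte and ion transport had all its tested rows on the same side of 0. Of 12 rows of insulin and IGF signalling, 4 had positive and 8 negative fold changes, with a median of -0.04; Irs2 alone fell. Foxo1, the transcription factor that insulin restrains, had 204, 192 and 219 CPM in the KO mice and 178, 173 and 176 CPM in the WT mice (0.22, adjusted p = 0.412, edgeR), and the receptor gene Igf2r was at -0.19. The 8 osmolyte and ion transport genes tested all lay below 0, with a median of -0.09, and Slc5a3 alone fell. Glucocorticoid-responsive genes had 7 positive and 4 negative rows and a median of 0.06; Irs2 is on this list as well, and Klf9, induced by glucocorticoids and thyroid hormone, was at -0.14. Dio2, the selenoenzyme that activates thyroid hormone in astrocytes, had 82.0, 97.1 and 71.0 CPM in the KO mice and 122, 119 and 121 CPM in the WT mice (-0.53, adjusted p = 0.0730, edgeR). Ndrg1, a myelin and stress-response gene, had 244, 309 and 258 CPM in the KO mice and 356, 356 and 320 CPM in the WT mice (-0.34, adjusted p = 0.0843, edgeR). Neither passed, although both were without overlap between genotypes, and both passed without KO replicate 2 (Dio2 at -0.66, adjusted p = 0.0140; Ndrg1 at -0.45, adjusted p = 0.00355; edgeR). Ndrg1 also did so with WT replicate 3 left out (-0.39, 0.0453).

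**Figure D3:**
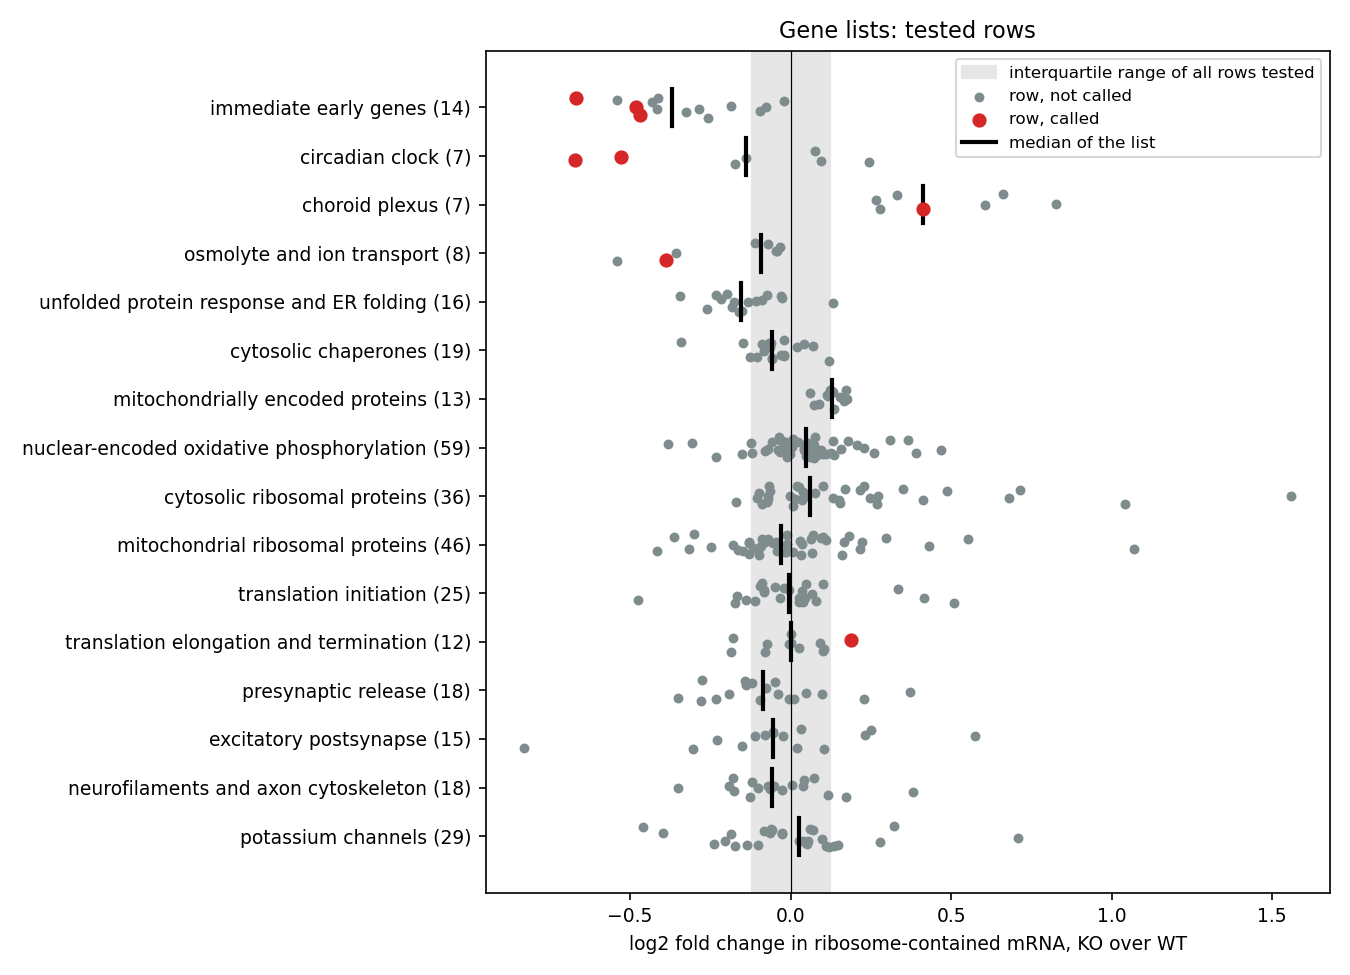
Each point is a tested row of the list named at the left (number of rows in brackets), placed by its log2 fold change in ribosome-contained mRNA, KO over WT; black bars are list medians, red points called rows and the grey band the interquartile range of all rows. The immediate early genes lie to the left (median -0.37) and the choroid plexus markers to the right (median 0.41), while most list medians fall inside the band.

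The translation machinery was next, since Ftsj1 acts on tRNA. Eef1a2, the form of elongation factor 1A that neurons and muscle use to bring aminoacyl-tRNA to the ribosome, had 5292, 5452 and 5454 CPM in the KO mice and 4811, 4811 and 4598 CPM in the WT mice. Its rise was small and tight (0.19, SE 0.0410, adjusted p = 0.0412, edgeR), and the mice of both genotypes lay close together. It lost the call with each single library left out, with adjusted p from 0.0525 to 0.174, with DESeq2 (0.0888) and with no filter on low counts (0.0613). Of the 12 elongation and termination genes, 7 had positive and 5 negative fold changes, with a median of 0.00. Eef2, the translocation factor, had 5273, 5316 and 5461 CPM in the KO mice and 5812, 5754 and 5412 CPM in the WT mice (-0.08, adjusted p = 0.553, edgeR). Eef1a1, the general form of the same factor, was at 0.03, and the ribosome rescue factor gene Pelo at -0.18.

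Of 25 initiation factor genes, 12 had positive and 13 negative fold changes, and none was called; Eif3e, an Eif3 subunit gene, was at 0.34 and Eif2s2, the beta subunit of the initiator tRNA carrier, at 0.42, both without overlap. Among 36 rows of the cytosolic ribosomal protein list, 26 had positive fold changes, and the median was 0.06. An unadjusted p under 0.05 was found for 6 in that direction, against 4.46% of all rows, and for none in the other. Both the 26 and the 6 include a transcribed pseudogene. Rps14, of the small subunit, had 339, 340 and 384 CPM in the KO mice and 318, 317 and 321 CPM in the WT mice (0.15, adjusted p = 0.511, edgeR). Rpl41 and Rpl10 had the highest fold changes, 1.56 and 1.04, at low levels: Rpl41 had 5.79, 35.6 and 20.2 CPM in the KO mice and 6.73, 9.59 and 5.19 CPM in the WT mice. KO replicate 1 lay within the WT range for Rpl41, and without that mouse Rpl41 passed (1.99, adjusted p = 0.0120, edgeR). Since the overlapping mouse was the one left out, that pass adds no support. Ribosomal protein genes have many processed pseudogenes, so reads of these rows may be split or shared. The 46 mitochondrial ribosomal protein genes had a median of -0.03, with 19 positive and 27 negative; Mrps33, a small-subunit protein, had 20.3, 25.8 and 22.1 CPM in the KO mice and 10.1, 9.59 and 12.3 CPM in the WT mice (1.07, adjusted p = 0.137, edgeR), and that row is 1 of 2 accessions of the gene.

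Enzymes that handle tRNA showed no called row. Of 12 tRNA modification genes, 10 had positive and 2 negative fold changes, with a median of 0.06. Wdr6, the mammalian relative of a yeast protein that works with the Ftsj1 homologue in tRNA methylation, had 839, 774 and 775 CPM in the KO mice and 714, 802 and 730 CPM in the WT mice (0.09, adjusted p = 0.680, edgeR), which overlapped. Urm1, a ubiquitin-like protein that delivers sulfur to tRNA, was at 0.28. Of 9 aminoacyl-tRNA synthetase rows, 6 were positive and 3 negative, and the median was 0.02.

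The integrated stress response is the pathway that lowers initiation when uncharged tRNA or stalled ribosomes are sensed. Of its 14 rows, 8 had positive and 6 negative fold changes with a median of 0.05, and none was called. Its transcription factor Atf5 had 19.3, 8.91 and 15.4 CPM in the KO mice and 5.04, 5.23 and 7.78 CPM in the WT mice (1.21, adjusted p = 0.273, edgeR). Nupr1, a stress-induced chromatin protein gene, had 17.4, 14.3 and 28.8 CPM in the KO mice and 8.41, 9.59 and 8.43 CPM in the WT mice (1.18, adjusted p = 0.169, edgeR). Both were higher in every KO mouse, at levels where a library holds few reads of the gene. The amino acid transporter gene Slc7a5 was at 0.29 and overlapped between genotypes. Atf5 is measured by 1 of 2 accessions, and that row is a noncoding transcript model of the gene. Both Atf5 and Nupr1 overlap other genes.

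Genes of protein folding in the endoplasmic reticulum mostly had small negative fold changes. Of 16 tested, 15 were negative and 1 positive, none was called, and the median was -0.15. An unadjusted p under 0.05 was found for 2, both negative, where 5.01% of all rows were lower at that p. The disulfide isomerase gene Pdia6 had 1086, 1036 and 930.2 CPM in the KO mice and 1188, 1076 and 1144 CPM in the WT mice (-0.16, adjusted p = 0.320, edgeR). Calr, a calcium-binding chaperone, was at -0.11 and Dnajc3, an inhibitor of the kinase PERK, at -0.15. P4hb, another disulfide isomerase, was the positive one at 0.13. Cytosolic chaperones had 15 negative and 4 positive rows with a median of -0.06; the chaperonin subunit gene Cct3 was at -0.13 and the constitutive Hsp70 gene Hspa8 at -0.09. Proteasome subunit genes were balanced, with 14 positive and 15 negative rows, and Psmb1 at 0.21.

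All 13 protein genes of the mitochondrial genome had positive fold changes in KO brain. These mRNAs are translated by the mitochondrion's own ribosomes and encode core subunits of the respiratory chain and ATP synthase. None was called, and the median was 0.13. Of the 13, 8 had an unadjusted p under 0.05 in that direction, against 4.46% of all rows. KO and WT did not overlap in 4, where 7.1% of all rows had KO above WT without overlap. CYTB, the cytochrome b gene of complex III, had 8632, 9278 and 8474 CPM in the KO mice and 7557, 7574 and 8201 CPM in the WT mice (0.18, adjusted p = 0.0843, edgeR). COX3, of cytochrome c oxidase, had 6056, 6365 and 6025 CPM in the KO mice and 5247, 5301 and 5803 CPM in the WT mice (0.17, adjusted p = 0.0999, edgeR). In both genes every KO mouse lay above every WT mouse, and WT replicate 3 came closest. Without WT replicate 3 CYTB (0.22, adjusted p = 0.0175), COX3 (0.22, adjusted p = 0.0134) and ND5 (0.22, adjusted p = 0.0324), a complex I subunit gene, passed (edgeR). Leaving out the WT mouse nearest the KO mice widens the gap by construction, so these passes add no support. Mitochondrially encoded reads made up 6.27%, 6.66% and 6.06% of the counts in the KO mice and 5.64%, 5.62% and 6.07% in the WT mice (6.33% ± 0.306 against 5.78% ± 0.253, SD, n = 3 each; two-sided exact permutation p = 0.2, adjusted 0.4 over 6 RNA classes, where 0.1 is the smallest p that 3 against 3 can give). Nuclear-encoded subunits of the same complexes had 36 positive and 23 negative rows of 59 and a median of 0.05.

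**Figure D4:**
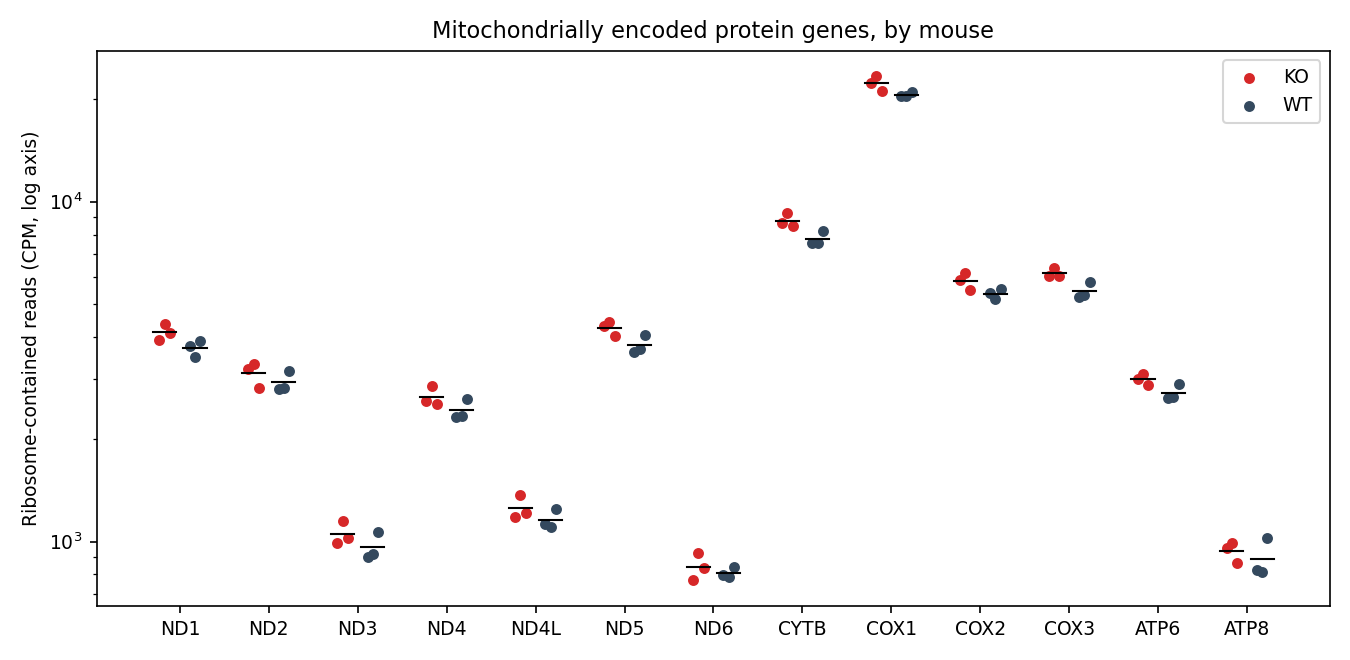
Levels of the 13 mitochondrially encoded protein genes in CPM (log axis), with the KO mice in red on the left and the WT mice in dark blue on the right of each gene; bars are means (n = 3 each). The KO mean lay above the WT mean for each gene, and the mice did not overlap for 4 of them: CYTB, COX3, ND1 and COX1.

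Synaptic and axonal genes contributed no called row, though several members lay below WT in every KO mouse, as did 7.56% of all rows. Presynaptic release genes had 13 negative and 5 positive rows of 18 and a median of -0.09. An unadjusted p under 0.05 was found for 4, all of them negative, against 5.01% of all rows on the negative side. Cplx1, which clamps and promotes vesicle fusion, had 845, 825 and 825 CPM in the KO mice and 955, 945 and 950.2 CPM in the WT mice (-0.19, adjusted p = 0.136, edgeR). The vesicle protein genes Sv2a (-0.12) and Vamp2 (-0.09) and the second complexin, Cplx2 (-0.28), were likewise below WT in every KO mouse. Cplx2 is seen through 1 of 2 transcript models, at a mean of 196 CPM in KO mice and 238 CPM in WT mice. In total mRNA that row averaged 5742 CPM in KO mice and 6113 CPM in WT mice. Among neurofilament and axon cytoskeleton genes 11 of 18 were negative, with a median of -0.06. Nefm, the middle neurofilament subunit, had 785, 852 and 779 CPM in the KO mice and 946, 913 and 881 CPM in the WT mice (-0.18, adjusted p = 0.227, edgeR), and Nefl and Ina were at -0.12 and -0.18.

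Receptors and channels varied in both directions. Excitatory postsynaptic genes had 6 positive and 9 negative rows and a median of -0.05, and the metabotropic glutamate receptor gene Grm3 had 358, 304 and 313 CPM in the KO mice and 376, 392 and 376 CPM in the WT mice (-0.23, adjusted p = 0.258, edgeR). GABA genes had 8 positive and 4 negative rows. Abat, which breaks GABA down, was at 0.29 in a row that is 1 of 2 transcript models of the gene. The pacemaker channel gene Hcn2 was at -0.20 and below WT in every KO mouse. Potassium channel genes were balanced, with 15 positive and 14 negative rows. Neuropeptide and granin genes had 10 negative and 6 positive rows, with Chga at -0.12 and the interneuron peptide gene Sst at -0.12. The glutamate uptake gene Slc1a3 of astrocytes had 1767, 1472 and 1755 CPM in the KO mice and 1446, 1422 and 1500 CPM in the WT mice (0.19, adjusted p = 0.225, edgeR). KO replicate 2 was the mouse that overlapped WT, and without it Slc1a3 passed (0.27, adjusted p = 0.00327, edgeR). Leaving out the overlapping mouse separates the genotypes by construction, so this pass adds no support.

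Matrix and surface proteins stood among the rows just short of the threshold. Hapln4, a link protein of perineuronal nets, had 630.1, 700.5 and 659 CPM in the KO mice and 771, 861 and 751 CPM in the WT mice (-0.26, adjusted p = 0.0730, edgeR). Leaving out KO replicate 2 brought it past the threshold (-0.30, adjusted p = 0.0173, edgeR), as did leaving out WT replicate 3 (-0.30, 0.0374). Lgals3bp, a secreted glycoprotein that binds galectins, had 112, 94.5 and 116 CPM in the KO mice and 69.8, 78.4 and 70.7 CPM in the WT mice (0.56, adjusted p = 0.0723, edgeR). Without KO replicate 2 it passed too (0.65, adjusted p = 0.0173, edgeR). Pcdhgb6, a clustered protocadherin whose locus shares exons with its neighbours, had 204, 166 and 152 CPM in the KO mice and 115, 133 and 124 CPM in the WT mice (0.48, adjusted p = 0.0723, edgeR); it passed without KO replicate 2 (0.52, adjusted p = 0.0453) or KO replicate 3 (0.57, adjusted p = 0.0431, edgeR). Clu, the gene of the secreted chaperone clusterin, is seen through 1 of 3 accessions, which had 31.8, 26.7 and 25.0 CPM in the KO mice and 52.1, 49.7 and 44.8 CPM in the WT mice (-0.80, adjusted p = 0.0843, edgeR). Nid2, a basement membrane protein gene, was at 0.72 with a mean of 56.5 CPM in KO mice and 34.1 CPM in WT mice (adjusted p = 0.0999, edgeR).

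By size alone, among matched rows without overlap and with a mean of at least 20 CPM, the highest fold changes were Rnf225 (0.89), Arf3 (0.76), Mad2l1bp (0.75), Nid2 (0.72) and Dnase2a (0.69). The lowest were Mirlet7c-1 (-0.89), Clu (-0.80), 2900060B14Rik (-0.79), Rnf39 (-0.77) and Slc25a18 (-0.77). None of these 10 passed, and their adjusted p ran from 0.0843 to 0.589 (edgeR); Mirlet7c-1, a microRNA gene, passed with KO replicate 1 left out (-1.28, adjusted p = 0.0427). Arf3, a small GTPase of the Golgi, averaged 27.2 CPM in KO mice and 16.1 CPM in WT mice. The Slc25a18 row is 1 of 3 transcript models of its gene.

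Noncoding RNA in the ribosome libraries gave 1 call. Vaultrc5, an RNA of the cytoplasmic vault particle, had 747, 857 and 697 CPM in the KO mice and 927, 1006 and 1080 CPM in the WT mice (-0.39, SE 0.0688, adjusted p = 0.0104, edgeR). It carries no reading frame of its own that the annotation names, so its reads are no measure of translation; in total mRNA, which was selected for poly(A), it averaged 17.1 CPM in KO mice and 20.1 CPM in WT mice. Its adjusted p (edgeR) was 0.0543 with KO replicate 3 left out and 0.0867 with WT replicate 2 left out, so the call did not hold. The 7SK RNA gene Rn7sk, which holds the elongation kinase P-TEFb inactive, had 169, 121 and 111 CPM in the KO mice and 202, 189 and 176 CPM in the WT mice (-0.50, adjusted p = 0.0843, edgeR), and passed without KO replicate 1 (-0.70, adjusted p = 0.00537, edgeR). The small nucleolar RNA Snord49a, which lies inside a host transcript, had 137, 138 and 139 CPM in the KO mice and 102, 96.7 and 107 CPM in the WT mice (0.43, adjusted p = 0.0999, edgeR). As a class, 122 small RNA rows had a median of 0.06, with 69 positive and 53 negative; 25 of them had an unadjusted p under 0.05, in either direction, where 9.48% of all rows did. Their share of counts was 1.52% ± 0.0873 in KO mice and 1.48% ± 0.157 in WT mice (SD, n = 3 each; exact permutation p = 0.8).

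Within 5 Mb of Ftsj1 on the X chromosome, 22 genes were tested, 7 with positive and 15 with negative fold changes; none was called and the median was -0.03. Slc38a5, an amino acid transporter gene there, had 14.5, 11.6 and 8.64 CPM in the KO mice and 20.2, 19.2 and 19.5 CPM in the WT mice (-0.76, adjusted p = 0.391, edgeR). The whole X chromosome held 158 tested rows, 88 of them positive, with a median of 0.03.

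Phenylalanine content was examined because tRNA-Phe is the tRNA of Ftsj1 that reads TTT and TTC. Coding sequences were found for 4213 of 4246 protein-coding rows (99.2%), which were ranked by the share of phenylalanine codons and divided into quintiles. From the poorest to the richest quintile the median log2 fold change was -0.01, -0.00, 0.00, 0.01 and 0.01, and the share of rows with positive values was 47.0%, 49.4%, 50.7%, 52.0% and 51.2%. The richest quintile, with 5.0% to 17.4% phenylalanine codons, thus differed from the poorest by 0.0178 on the log2 scale. Computed in each mouse, relative to the WT mean, that difference was 0.0278, -7.57e-05 and 0.0229 in the KO mice and -0.00104, -0.00762 and 0.0142 in the WT mice, which overlapped, with an SD within genotype of 0.0132. Set beside the other amino acids, the same difference ran from -0.0326 for alanine to 0.0393 for lysine, and it was -0.0301 for the number of codons in the gene. The amino acids are not independent of one another or of coding length.

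The called genes were spread along this scale. Of the 9 coding ones, Ier5 (1.30%), Fosl2 (1.84%) and Irs2 (1.89%) were in the poorest quintile, Eef1a2 (2.81%) and Bhlhe40 (2.92%) in the second, Nr1d1 (4.23%) and Egr1 (4.88%) in the fourth, and Slc5a3 (5.15%) and Ttr (5.44%) in the richest. The messages printed first did not pass: Golt1b had 5.79, 8.91 and 11.5 CPM in the KO mice and 10.9, 6.97 and 8.43 CPM in the WT mice (-0.00, SE 0.403). That row is 1 of 2 transcript models of Golt1b. Tmem203 had 71.4, 82.0 and 87.4 CPM in the KO mice and 60.5, 74.1 and 66.8 CPM in the WT mice (0.26, adjusted p = 0.589, edgeR). Alg10b had 175, 176 and 184 CPM in the KO mice and 151, 138 and 169 CPM in the WT mice (0.21, adjusted p = 0.506, edgeR). The last was without overlap, while Dnajb9, a chaperone gene with 10.8% phenylalanine codons, lay on the other side at -0.18.

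**Figure D5:**
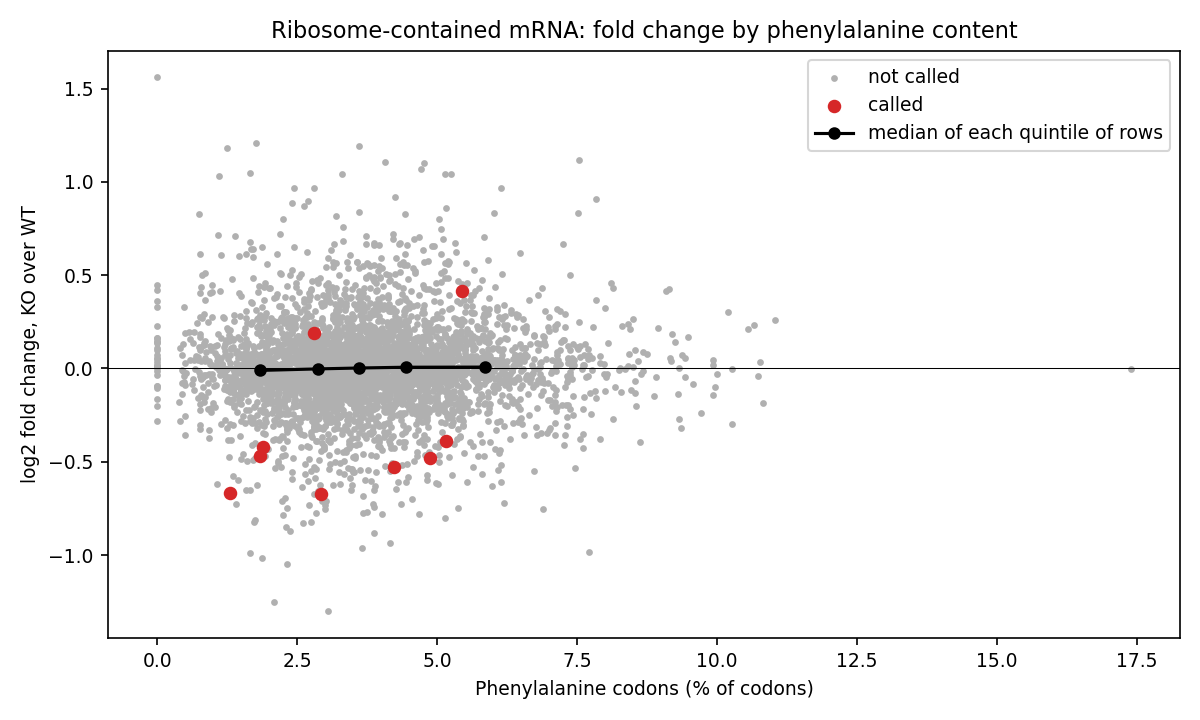
Each point is 1 of 4213 protein-coding rows, with the percent of its codons that are TTT or TTC across and the log2 fold change in ribosome-contained mRNA, KO over WT, upward; red points are called rows and the black line joins the medians of quintiles of the rows. The line runs from -0.01 to 0.01, and called rows lie in poor and rich quintiles.

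Set beside total mRNA of the same mice, the 10 calls had the same direction in both kinds of library. In total mRNA Egr1 averaged 1025 CPM in KO mice and 1394 CPM in WT mice, and Bhlhe40 averaged 326 CPM in KO mice and 485 CPM in WT mice. Ttr averaged 2683 CPM in KO mice and 2236 CPM in WT mice there. Translation efficiency, the ribosome-contained level relative to the total mRNA level, was compared between genotypes through an interaction term. None of 4601 rows was called (0%; edgeR, the smallest adjusted p being 0.121, and DESeq2 called 0 as well), and 228 had an unadjusted p under 0.05 (4.96%). With KO replicate 1 left out 4 rows were called, and with WT replicate 2 left out 1 was. Among the 10 called genes the difference ran nearest to the threshold for Ttr, at 0.15 (SE 0.0647, adjusted p = 0.960, edgeR). A p that misses the threshold does not show that RNA level accounts for the whole of these changes.

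The planned fit with the replicate number as a block, shared by both genotypes, called 0 rows as well. Because both libraries of a mouse come from 1 brain, a fit with the mouse as a block was added after seeing the data, and it called 4 rows. ND1, a complex I subunit gene, was at 0.27 (adjusted p = 0.000654, edgeR with the mouse as a block) and COX3 at 0.28 (0.00745), with positive differences in translation efficiency. ND1 averaged 4132 CPM in KO mice and 3715 CPM in WT mice in the ribosome libraries, and 13882 CPM in KO mice and 15063 CPM in WT mice in total mRNA. COX3 averaged 6149 CPM in KO mice and 5450 CPM in WT mice in the ribosome libraries, and 13746 CPM in KO mice and 14834 CPM in WT mice in total mRNA. For both genes the KO mean was thus above WT among ribosome-held reads and below WT in total mRNA. In total mRNA, however, the mice of the genotypes overlapped. ND1 ran from 12709 to 14776 CPM in KO mice and from 13684 to 16590 CPM in WT mice there. COX3 ran from 13031 to 14282 CPM in KO mice and from 14026 to 16098 CPM in WT mice. Over all 13 mitochondrially encoded genes the median log2 fold change was 0.13 in the ribosome libraries and -0.07 in total mRNA. Nova2, a neuronal splicing regulator, was at -0.31 (adjusted p = 0.00617) and a predicted transcript of the nuclear lamina gene Tmpo at -0.79 (adjusted p = 0.00650, both edgeR with the mouse as a block). Nova2 averaged 519 CPM in KO mice and 587 CPM in WT mice in the ribosome libraries, against 1225 CPM in KO mice and 1117 CPM in WT mice in total mRNA.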

How the data were processed

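The deposited values are raw counts for each RefSeq accession, whole numbers that sum differently by library, with rows and columns named per the file headers; the submitters' processing notes name Bowtie2, HISAT2, HTSeq and mm10, with no version or role. No source used here gives strand use, removal of duplicates or the treatment of reads matching several transcripts. The instrument was taken from the table's name. Of 106519 rows, 86040 matched a gene in a RefSeq table of GRCm38.p6, and these held 98.8% of the ribosome-contained counts. Columns of 6 ribosome and 6 total mRNA libraries were used, and 0 per-sample columns were left unused; the codon table of the MiSeq libraries was not used here.

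Each accession was tested as deposited with edgeR 4.0.16 (robust quasi-likelihood, TMM, minimum count 10, minimum total 15) in R 4.3.3 with genotype as the term. Translation efficiency was the interaction over both kinds of library, also with the mouse as a block, since the labels give the same mouse for both. Log2 fold changes are KO over WT, and p-values were Benjamini-Hochberg adjusted over all rows. Tested on simulated data of the ribosome comparison (4625 rows), the fit recovered 53 of 98 rows changed 1.5-fold and 84 of 96 changed 2-fold, with 7 false calls. These rows were all changed at once, many more than the 10 called in the real data, which eases the adjusted threshold. Recovery in the real comparison may thus be lower, and changes under 1.5-fold were not tried. Replicates differed beyond sampling noise (chi-square per degree of freedom 1.50 to 1.76). Genes of GENCODE M21 gave codon shares, in place of the protein table first planned. Named were every called row, the next 10 matched rows by unadjusted p, the 5 highest and 5 lowest fold changes among matched rows with a mean of at least 20 CPM and no overlap, up to 4 members per list with the lowest p, and Ftsj1; Golt1b, Tmem203, Alg10b and a few list members were added after their values were seen. The gene lists and the members were chosen with earlier results of these data known. Alternatives were DESeq2 1.42.0, other size factors, no filter, blocks, summed accessions, thinned counts and each library left out.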

Additional observations from a re-analysis of the deposited data

How the results depend on the processing

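The count of 10 called rows (2 higher, 8 lower) moved with several choices. It was 27 (9 higher, 18 lower) with no filter on low counts, 16 with counts thinned to the smallest library (5 higher; chosen after seeing the data, because each KO library was shallower), 7 with DESeq2 (1 higher), 9 with other size factors (Fosl2 lost) and 12 with all 12 HiSeq libraries in 1 model. With single libraries left out it ran from 4 to 24, from 1 to 11 for higher and from 3 to 15 for lower rows; without WT replicate 1 it was 4 and without WT replicate 2 it was 5, and without KO replicate 2 or WT replicate 3 it was 24. Of the 10, Ttr, Bhlhe40 and Egr1 were called under every alternative run, 9 were shared with the thinned counts (Fosl2 at adjusted p = 0.0520, edgeR), and in the 12-library model Nr1d1 (0.373) and Vaultrc5 (0.282) were not called. With the replicate number as a block, 48 rows were called (20 higher, 28 lower), all 10 among them; same-numbered KO and WT samples correlated in their deviations by only 0.0192 to 0.0278, each best with its own number, so the numbers were not taken to pair the mice. For translation efficiency, 0 rows were called in the main test, 4 with no filter, 0 with the planned block by replicate number, 4 with the mouse as a replicate block (chosen after seeing the data), and 0 to 4 with single libraries left out. The difference between the phenylalanine-richest and poorest quintiles in median log2 fold change was 0.0178 for ribosome-contained mRNA, where it ran from 0.00958 to 0.0339 (without WT replicate 3) with single libraries left out, and 0.000351 for the interaction. Golt1b (-0.00) changed sign, to 0.00896 with the replicate block, and ran from -0.24 to 0.21 with single libraries left out; the other 99 named genes kept their sign throughout, and 542 of 573 list medians moved by less than the spread between mice. Dusp4, Dio2, Ndrg1, Hapln4, Lgals3bp, Rn7sk and Mirlet7c-1 passed above only with a library left out. Each library so named was the one of its genotype nearest the other genotype. Such a pass adds no support to a row not called in the main test. The shallowest library held 1055741 counts, which limits rows at low CPM most.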
